A study of Mus musculus with 11 samples.

Results

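Dct, Zic1, Htra1, Loxl1 and Eya1 had the 5 largest falls in apical progenitors (APs) of the Syncrip cKO embryo among the genes ranked. Each single-cell matrix held 32285 genes. Only genes with at least 200 counts over the APs of both embryos were ranked, without predicted, sex-linked and mitochondrial genes. Rarer genes could thus fall further and not be chosen. The 5 genes were chosen by the ratio of their summed counts in cKO APs over WT APs, so their fall in APs is a description here and was not tested. The question was which cells carried these genes in each embryo, how many cells held the difference, which other cell types carried them, and what they did in cultured progenitors. Single-cell RNA sequencing (scRNA-seq) had been made from the dissected dorsal cortex of 1 WT and 1 cKO C57BL/6 embryo of the same pregnant mouse at E14.5. The cKO carried Syncrip fl/fl, with loxP sites around exons 2, 3 and 4, together with Emx1Cre, which drives Cre in progenitors of the dorsal telencephalon and spares those of the ganglionic eminence. The other data set was RNA-seq of neural progenitor cells (NPCs) taken from the lateral ventricles of E14.5 WT and cKO embryos and grown as cultures with EGF and bFGF, with 3 cultures per genotype. The sources used here do not say whether the cultures came from separate embryos, so p-values measure the spread between cultures, which may be technical. Syncrip is an RNA-binding protein. The alleles are those that the study's methods give for the cKO, and the labels name the samples WT and cKO only. The LACE-seq samples of the series were not analysed here.

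APs, the radial glia that line the ventricle, divide there and give rise to intermediate progenitors (IPs) and to neurons that migrate outward. The cortical wall is patterned along its medial to lateral axis, and transcription factors of the Zic and Emx families are known markers of position in it. Zic1 is such a zinc finger factor and is also known from the meninges and from Cajal-Retzius cells. Dct, dopachrome tautomerase, is an enzyme of melanin synthesis that is also known from the neuroepithelium of the embryonic forebrain. Htra1 is a secreted serine protease, Loxl1 is a secreted lysyl oxidase that crosslinks elastin, and Eya1 is a phosphatase and transcriptional coactivator that works with homeobox partners.

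After removal of cells with fewer than 200 genes or more than 10% mitochondrial UMIs, 8214 of 8289 barcodes remained in the WT library and 9560 of 9659 in the cKO library, at medians of 11705 and 11012.5 UMIs (unique molecular identifiers, 1 per counted RNA molecule) per cell, and the libraries shared 22 barcodes. Both libraries held more barcodes than the number of cells that the study's methods give as loaded per channel. The embryos differed in sex: the WT embryo held 22062 UMIs of 4 Y-linked genes and 2 of Xist, and the cKO embryo held 211 and 105339. Genotype, sex and embryo cannot be told apart in the scRNA-seq. Syncrip itself was at 315 CPM (counts or UMIs per 1e+06 of the library or class) in WT APs and 323 CPM in cKO APs, and at 77.9, 79.8 and 79.9 CPM in WT cultures against 90.3, 88.7 and 81.5 CPM in cKO cultures (edgeR adjusted p = 0.180). It was thus not lower in samples labelled cKO. The 3′ tags lie outside the deleted exons and the culture counts cover the whole gene, so neither checks the deletion, and the group names are those of the labels. The paper reports that these exons were missing from its RNA-seq tracks of cKO neurospheres. Clusters were named from marker lists, and 4 of 28 clusters were called AP-like, with 960 WT and 1315 cKO cells. All 13 AP markers were detected in them, at a summed 8424 CPM in WT and 8347 CPM in cKO. One of the 4, with a median of 2780 UMIs per cell, was shallow, and another had Aldh1l1 and Tnc among its leading genes.

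The promoter of Dct is shown because Dct is best known from pigment cells, where the factor Mitf acts through the M-box, whose core is CATGTG. The 106 bases below lie on the minus strand at chr14:118052341-118052446 (RefSeq, GRCm38.p6), upstream of the gene, with the core in capitals.

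Dct promoter: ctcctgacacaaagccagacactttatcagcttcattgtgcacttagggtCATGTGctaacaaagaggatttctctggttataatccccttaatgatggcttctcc

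Of the 5 genes, 3 had an entry in the promoter table (Dct, Zic1 and Htra1). Searched on both strands in the 250 bases before the start, CATGTG was found 2 times for Dct and 0 times for Zic1 and for Htra1, and 12.3% of all 32851 promoters held it. Mitf had 34 UMIs in WT APs and 36 in cKO APs.

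Dct had 547 UMIs in WT APs and 127 in cKO APs, or 42.2 and 6.66 CPM, a log2 ratio of -2.66 (95% exact conditional interval -2.95 to -2.38). All intervals of the scRNA-seq cover counting error only, because each genotype is 1 embryo. Zic1 had 230 and 59 UMIs (log2 ratio -2.52, -2.96 to -2.10), and Htra1 had 203 and 58 (-2.36, -2.81 to -1.93). Loxl1 had 234 and 81 UMIs (-2.09, -2.47 to -1.72). Eya1, with 494 and 243 UMIs (-1.58, -1.81 to -1.35), was the last gene inside the choice, and Ecrg4, with 492 and 285 (-1.34, -1.56 to -1.13), Kcnip1 (-1.33) and Rmst (-1.31) were just outside it. Only genes with at least 200 UMIs over both libraries were ranked, without predicted, sex-linked and mitochondrial genes. Of all 10398 genes at that level, 0.202% had a log2 ratio of -1 or lower, and these values fixed the choice.

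The falls were seen in the number of APs with a UMI and, at full depth, in the UMIs per positive AP. Dct was detected in 191 of 960 WT APs, or 19.9% (95% exact binomial interval 17.4 to 22.6%), and in 79 of 1315 cKO APs, or 6.01% (4.78 to 7.43%). Zic1 was detected in 16.0% of WT APs (13.8 to 18.5%) and in 3.57% of cKO APs (2.64 to 4.72%). Htra1 was detected in 115 of 960 WT APs (9.99 to 14.2%) and in 44 of 1315 cKO APs, or 3.35% (2.44 to 4.47%). At full depth the protease had the lowest share of the 5 genes in both libraries, with its intervals overlapping those of Zic1. Loxl1 was detected in 17.0% (14.7 to 19.5%) and 4.87% (3.77 to 6.17%), and Eya1 in 22.3% (19.7 to 25.1%) and 12.2% (10.4 to 14.1%). A positive AP held a mean of 2.86 Dct UMIs in WT and 1.61 in cKO, and 2.31 Eya1 UMIs in WT and 1.52 in cKO. For Zic1, Htra1 and Loxl1 these means ran from 1.44 to 1.77 in WT and from 1.26 to 1.32 in cKO.

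Depth was close between the 2 sets of APs, at medians of 12553 and 12664 UMIs per cell. To set the shares on 1 depth, each AP was thinned to 5000 UMIs, which left out 178 WT and 173 cKO APs. Dct was then detected in 12.9% of WT and 3.15% of cKO APs, Zic1 in 6.65% and 1.49%, and Htra1 in 6.91% and 1.93%. Loxl1 was detected in 7.42% and 2.01%, and Eya1 in 12.3% and 4.82%. At this depth Zic1, not Htra1, had the lowest share in both libraries. The mean UMIs per positive AP were then 1.06 in both libraries for Zic1 and 1.09 in both for Loxl1. They were higher in WT than in cKO for Dct, Eya1 and Htra1, with 1.24 and 1.14 for Htra1. For comparison at full depth, immature neuron-like cells, with medians of 14739 and 13857 UMIs, held a UMI of Dct in 0.304% of WT and 0.133% of cKO cells. The same cells held a UMI of Zic1 in 0.685% and 0.663%, of Loxl1 in 0.875% and 0.365%, and of Eya1 in 2.02% and 1.69%. Htra1 was found in 2.93% of WT and 3.55% of cKO immature neurons, so that its share in cKO APs was no higher than in these neurons at full depth. Thinned to 5000 UMIs, these neurons held Htra1 in 1.10% (WT) and 1.37% (cKO, 0.973 to 1.88%). This compares with 1.93% of cKO APs (1.21 to 2.90%), and the 2 cKO intervals overlapped. Dct was then in 0.0407% and 0.0722% of these neurons. Ganglionic eminence-like cells, shallower at medians of 8129 and 7734.5 UMIs, held Htra1 in 1.01% and 0.796%. Immature neurons descend from APs and may express these genes, so their shares do not measure free RNA. Microglia-like cells held 0 UMIs of all 5 genes, in 31 WT and 48 cKO cells, which allows a share of up to 9.68% and 6.25%.

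**Figure D1:**
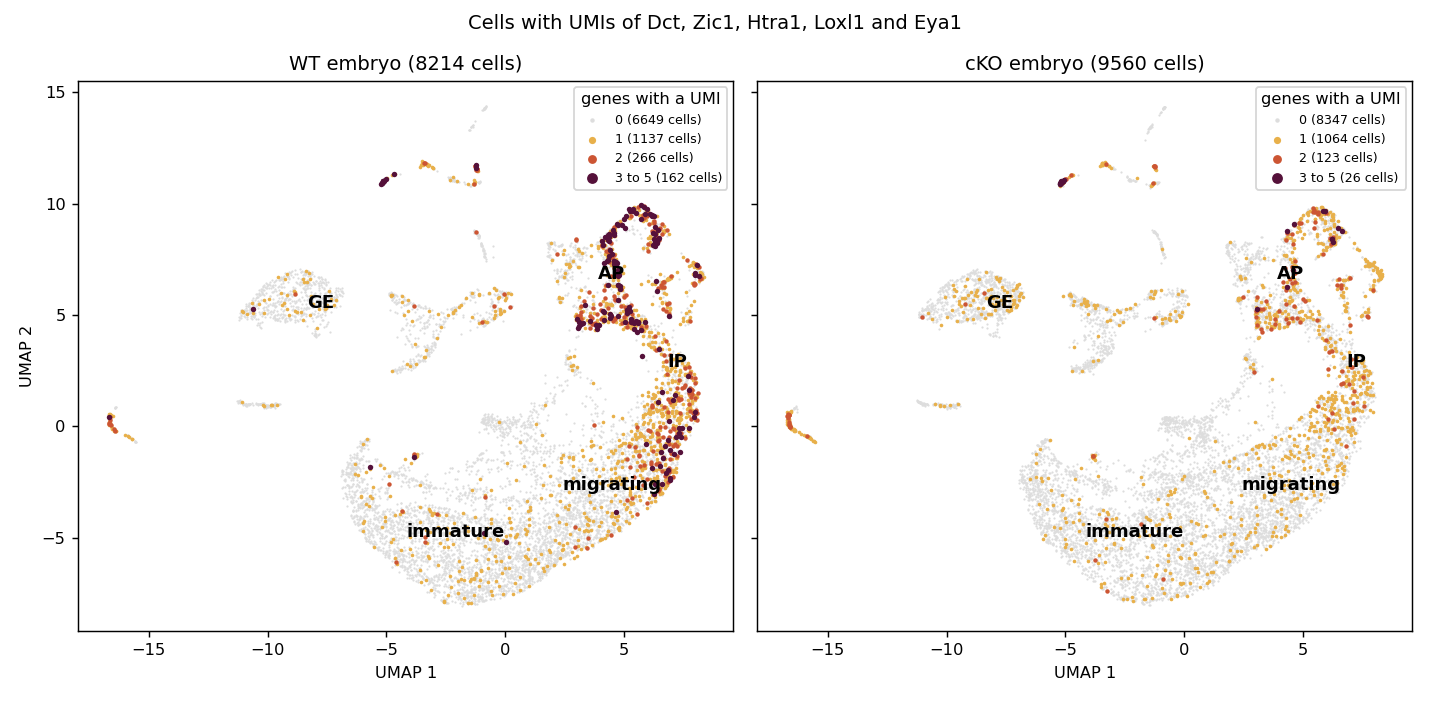
Each point is a cell of the WT (left) or cKO (right) embryo on the same UMAP axes (arbitrary units), coloured by how many of the 5 genes had a UMI, with the main classes labelled. Cells with 3 or more genes number 162 in WT and 26 in cKO, and those of WT lie mostly among APs and along the path to IPs and migrating neurons.

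The UMIs were spread over many APs. In WT, 42 of 191 Dct-positive APs held 50% of its UMIs, and the 10 APs with most held 20.3%, the highest count in 1 cell being 13. The enzyme was at 5 or more UMIs in 30 WT APs and in 1 cKO AP. For Zic1, 45 of 154 positive WT APs held 50% of the UMIs and no AP exceeded 5. For Htra1 this was 28 of 115 (highest count 10), for Loxl1 47 of 163 (highest count 6) and for Eya1 42 of 214 (highest count 20). In cKO APs the highest counts were 5 for Dct, 3 for Zic1 and Htra1, 5 for Loxl1 and 8 for Eya1. Most cKO carriers held the minimum, with 50 of 79 Dct-positive and 36 of 47 Zic1-positive APs at 1 UMI.

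The APs were clustered again by themselves, with the 5 genes left out of the variable genes. Most of the 9 sub-clusters were led by genes of the cell cycle or of differentiation, 1 by hemoglobin genes at a median of 2795 UMIs per cell, 1 by Luzp2 and Aldh1l1, and 1 by Erbb4, Nrxn3 and Gad2. Each held 38.5% to 57.3% WT cells once both libraries were given equal weight. The sub-clusters split the same UMIs that chose the genes, so their values describe where the fall lay and do not support it. Each of the 5 genes was at a lower level in cKO in all of the 7 largest sub-clusters, with log2 ratios from -5.24 to -2.06 for Dct and from -2.67 to -0.78 for Eya1. The interval lay below 0 in all 7 for Dct, and in 6 for each of Zic1, Htra1, Loxl1 and Eya1. It held 0 for these in the shallow sub-cluster led by hemoglobin genes, where Loxl1 had 2 UMIs in each embryo (-0.31, -4.10 to 3.47). In the sub-cluster led by the replication genes Ung, Mcm3 and Cdc6, Dct was in 25.5% of 141 WT and 9.06% of 309 cKO cells and Zic1 was in 22.0% and 3.56%. In the sub-cluster led by the neurogenic genes Gadd45g, Neurog2 and Eomes, Loxl1 was in 23.5% of 200 WT and 7.35% of 204 cKO cells and Eya1 was in 26.0% and 8.33%. In the mitotic sub-cluster led by Pif1, Kpna2 and Ube2c, Htra1 had 42 UMIs in 99 WT cells and 2 in 155 cKO cells. The other 2 sub-clusters were small. In the one led by Luzp2 and Aldh1l1, with 18 WT and 28 cKO cells, Dct and Zic1 had 0 UMIs and Htra1 had 1 UMI in WT and 16 in cKO (log2 ratio 3.93, 1.25 to 9.32). The one led by Erbb4 held 13 WT and 22 cKO cells and at most 12 UMIs of any of the genes in a library.

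**Figure D2:**
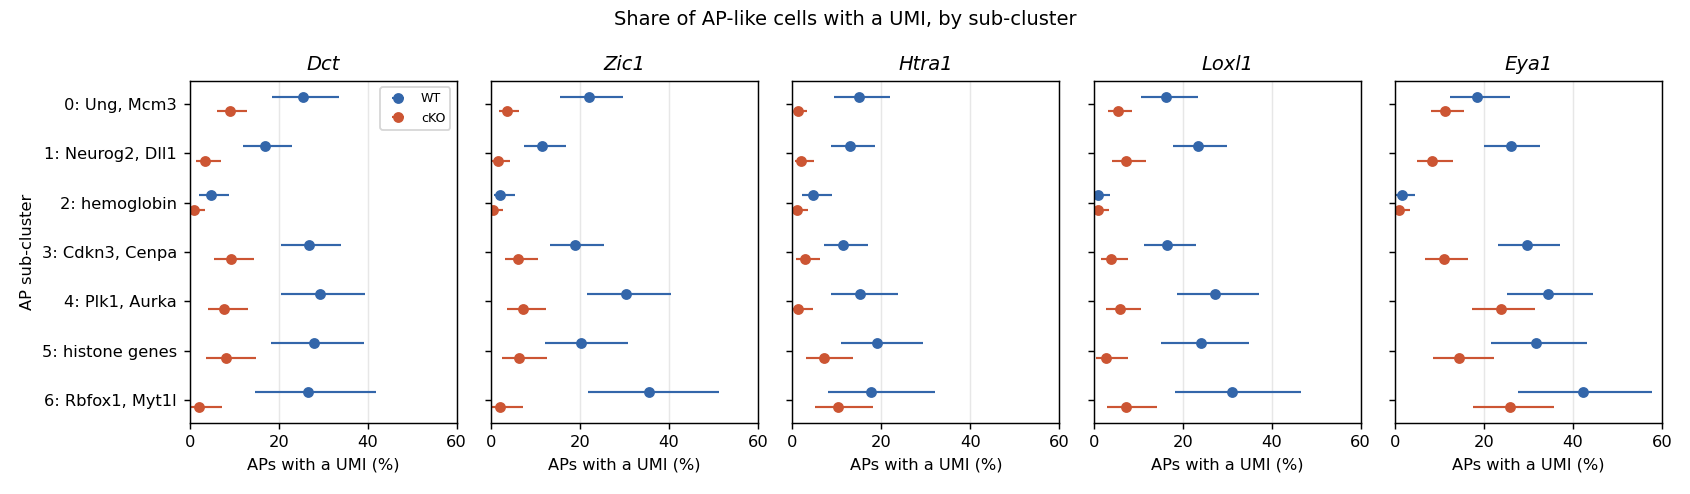
Share of AP-like cells with at least 1 UMI (%, horizontal axis) in the 7 largest AP sub-clusters, named by leading genes, for WT and cKO, with 95% exact binomial intervals that cover counting error only. The WT point lies to the right of the cKO point in every panel and sub-cluster, and the lowest shares are those of the shallow sub-cluster led by hemoglobin genes.

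The 5 genes met in the same WT cells more often than the product of their shares would give. At least 3 of them had a UMI in 104 WT APs against 37.7 from the product, and all 5 in 16 against 0.139, while 501 WT APs held none against 367. In cKO, 12 APs held at least 3 genes against 2.13 from the product and 0 held all 5. Cells with more genes were also deeper, with a median of 18383 UMIs in WT APs with at least 3 genes and 10354 in those with none, and depth thus moved with the number of genes. At 5000 UMIs per cell, 77 of 782 WT APs (9.85%, 7.85 to 12.2%) still held 2 or more genes against 54.4 from the product, and 22 held 3 or more against 5.03. At that depth 16 of 1142 cKO APs (1.40%, 0.803 to 2.27%) held 2 or more against 7.41. At full depth the pair met most often was Dct and Zic1, with both in 84 WT APs (2.74 times the product) and in 22 cKO APs (7.79 times). The least associated WT pair was Dct and Htra1, with both in 36 APs (1.57 times), and in cKO it was the same pair, with 2 APs (0.757 times).

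**Figure D3:**
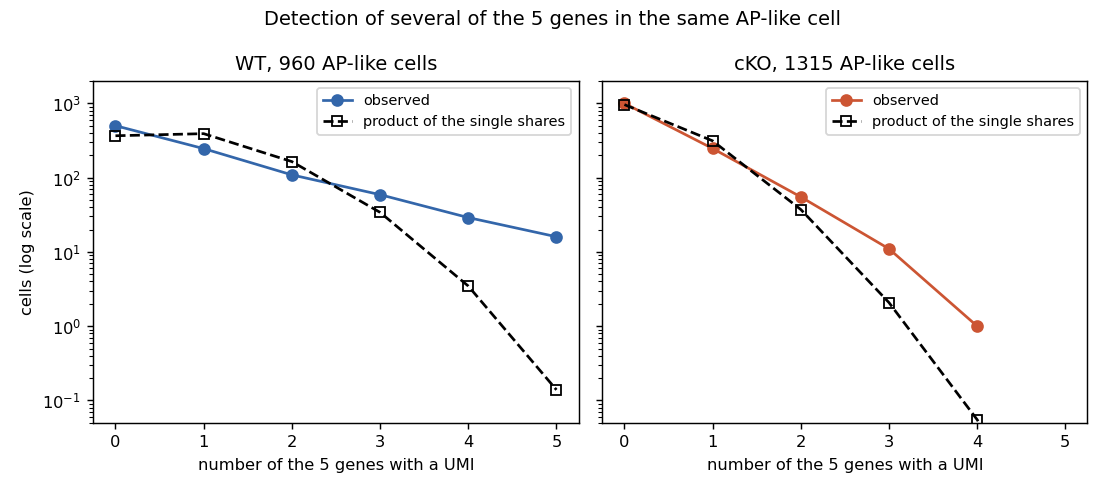
Number of AP-like cells (log scale) with a UMI of 0 to 5 of the genes, as observed (filled circles) and as the product of the shares of each gene (open squares), in WT and cKO. The observed points pass above the product at 3 to 5 genes in WT and at 2 to 4 in cKO.

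The 213 WT APs with UMIs of 2 or more of the genes were set against the 501 with none, as CPM, and the 10 genes most raised in these carriers were taken. They were Adamts19, a secreted metalloprotease, with 19.6 CPM in carriers against 1.14 CPM (log2 ratio 4.10, 2.91 to 5.58), the long non-coding RNA Rmst (3.71), the adhesion gene Cntnap5b (3.47), the helix-loop-helix inhibitor Id3 (2.79), the heparan sulfate sulfotransferase Hs3st4 (2.75), the guidance ligand Slit3 (2.66), the channel subunit partner Kcnip1 (2.39), the predicted gene Gm30382 (2.36), the GABA receptor subunit Gabra4 (2.33) and the homeobox factor Prox1 (2.16). The cKO embryo, which took no part in that choice, had 67 APs with 2 or more genes and 1001 with none. There the interval of the same ratio lay above 0 for 5 of the 10 genes, Adamts19 (3.50, from 3 and 2 UMIs), Rmst (1.72), Cntnap5b (3.48), Id3 (2.13) and Prox1 (2.08), and below 0 for 2, Slit3 (-2.21) and Gm30382 (-2.08), each with 2 UMIs in carriers. For the other 3 the interval held 0. Carriers were chosen at full depth and were deeper than the rest in both libraries. The share of all genes with an interval off 0 in this comparison is not given here. The counts among the 10 genes are thus a description.

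The ratio of cKO over WT APs shares the WT cells with the carrier comparison, so its values are given beside it and are not a second finding. Adamts19 had 106 UMIs in WT APs and 6 in cKO APs (-4.70, -6.18 to -3.53), too few to enter the ranking. The values were -1.31 for Rmst, -1.28 for Cntnap5b, -0.98 for Id3, -1.06 for Hs3st4 and -0.30 for Slit3. They were -1.33 for Kcnip1, -1.02 for Gm30382, -0.75 for Gabra4 and -1.26 for Prox1.

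Genes that mark position in the telencephalon were read in the same cells. Of the hem and medial list, 1 of 13 genes reached 200 UMIs in APs, and this gene, the Wnt agonist Rspo3, was at 80 UMIs in WT and 217 in cKO APs (log2 ratio 0.88, 0.51 to 1.27). Wnt5a had 26 UMIs in WT carriers and 10 in WT APs with none (1.72, 0.62 to 2.94), and 41 in all WT and 27 in all cKO APs (-1.16, -1.92 to -0.42). Wnt3a, Lmx1a, Bmp4, Msx2 and Gdf7 had at most 1 UMI in APs of either embryo. Of the list of septum and rostral midline genes, 5 of 11 reached 200 UMIs, 0 were past a log2 ratio of 1 in either direction, and their median was -0.35, beside -0.01 over all genes. Of the dorsal pallium list, all 6 reached 200 UMIs and 0 were past that limit. Within it Emx1 was at a ratio of -0.37 (-0.55 to -0.18), and Nr2f1, an orphan nuclear receptor, was at 0.50 (0.45 to 0.56). In WT carriers Nr2f1 was below the APs with none (-0.95, -1.06 to -0.83) and Emx1 was above them (0.37, 0.04 to 0.70). Of the lateral list 2 of 5 and of the subpallial list 2 of 6 reached 200 UMIs, with 0 past the limit. The subpallial factors Gsx2 (-2.18) and Olig2 (-2.31) were lower in WT carriers than in APs with none.

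Of the relatives of these genes that reached 200 UMIs in APs, 0 were past a log2 ratio of 1 in either direction, a limit that 21 lower and 26 higher genes of all 10398 passed, so this count says nothing particular about the relatives. In the Zic family, zinc finger factors with overlapping roles, Zic2 had 220 and 254 UMIs in WT and cKO APs (-0.35, -0.61 to -0.08) and Zic5 had 292 and 278 (-0.63, -0.87 to -0.38). The rarer Zic4, the divergent neighbour of Zic1, had 15 and 3 UMIs (-2.88, -5.31 to -1.06). In WT carriers Zic4 had 14 of its UMIs and APs with none had 1. Of the 11 genes of the Eya and Dach network 5 reached 200 UMIs, with 0 past the limit and values for Eya3 of -0.07, Eya4 of 0.13 and Dach1 of -0.04. Of the 16 lysyl oxidase and elastic fiber genes 8 reached 200 UMIs, with 0 past the limit, and the latent TGF-beta binding protein Ltbp1 was at -0.46 and the microfibril gene Mfap2 at -0.38. Loxl2, Loxl3 and Lox had at most 71 UMIs in a library. Htra2, a mitochondrial protease, was at 0.02 (-0.19 to 0.23), and Htra3 and Htra4 had at most 8 UMIs in a library. Of the 8 melanin synthesis genes beside Dct, 0 reached 200 UMIs: Tyr and Slc45a2 had 0 UMIs in APs of both embryos, Tyrp1, Mlana, Oca2 and Gpr143 had at most 2 in either, and Pmel had 13 and 17. Of the 7 melanoblast markers, a list that shares 5 genes with that one, Sox10 had 1 and 8 UMIs and Kit had 60 and 126, and the list summed to 8.40 CPM in WT and 9.92 CPM in cKO APs.

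Markers of the cells that follow APs were present in them. IP markers summed to 1052 CPM in WT and 1021 CPM in cKO APs, against 3295 and 3693 CPM in IPs. Migrating neuron markers were at 334 and 442 CPM and immature neuron markers at 727 and 951 CPM, both higher in cKO APs, and ganglionic eminence markers were at 164 and 201 CPM. Markers of non-neural cells were at lower levels. The 6 endothelial markers summed to 7.48 CPM in WT APs and 3.83 CPM in cKO APs, and in their own class to 6701 and 5620 CPM. Pericyte markers were at 6.17 and 5.67 CPM, meningeal markers at 3.01 and 4.77 CPM, Cajal-Retzius markers at 13.9 and 16.8 CPM, and microglia markers at 9.94 and 12.2 CPM. Choroid plexus markers were at 4.47 and 4.20 CPM with Ttr and Clic6 at 0, oligodendrocyte precursor markers were at 8.86 and 8.45 CPM, and hemoglobin-based red cell markers were at 87.7 and 288 CPM, against 780328 and 701463 CPM in red blood cells. Their part in the falls was not tested.

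Outside the choice, Dct, Zic1, Loxl1 and Eya1 were lower in cKO in IPs and in migrating neurons, with intervals below 0. In IPs, Zic1 had 92 UMIs in 519 WT cells and 8 in 543 cKO cells, or 11.9 and 1.01 CPM (log2 ratio -3.57, -4.82 to -2.53). Dct had 32 and 6 UMIs there (-2.46, -4.01 to -1.18) and Eya1 had 433 and 218 (-1.03, -1.27 to -0.80). Loxl1 differed less, with 140 and 106 UMIs (-0.44, -0.82 to -0.07), and Htra1 had 10 and 5. The coactivator Eya1 was thus in 35.1% of WT and 21.5% of cKO IPs, in each embryo a higher share than in its APs. Of 12303 genes with at least 30 UMIs in IPs, 0.593% had a log2 ratio of -1 or lower, and Dct, Zic1 and Eya1 were among them, while Htra1 did not reach 30 UMIs.

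In migrating neurons, Dct had 74 UMIs in 1968 WT cells and 5 in 1901 cKO cells (-3.77, -5.43 to -2.48), and Zic1 had 148 and 16 (-3.09, -3.93 to -2.34). Loxl1 had 159 and 27 UMIs (-2.44, -3.08 to -1.84), Eya1 had 376 and 226 (-0.61, -0.86 to -0.37) and Htra1 had 46 and 35 (-0.27, -0.95 to 0.39). These neurons fell into 2 clusters, and the one with Cckar, Itga4 and Neurod1 among its leading genes, with 988 WT and 938 cKO cells, held 113 of the 148 WT Zic1 UMIs and 140 of the 159 WT Loxl1 UMIs. Agbl4, Kif26b and the IP marker Mfap4 were also among its leading genes. At resolutions 0.4 and 1.2, clusters led by these 3 genes and Eomes were named IP. Another at 1.2, with Cckar and Neurod1, was named migrating neuron. The class of these cells may thus depend on the resolution, which was not tested. At least 2 of the 5 genes were found in 90 WT migrating neurons (4.57%, 3.69 to 5.59%) and in 5 in cKO (0.263%, 0.0855 to 0.613%). At least 3 were found in 28 WT and 0 cKO migrating neurons, where 0 of 1901 cells allows a share of up to 0.158%, and in 15 WT and 0 cKO IPs. Of 13896 genes with at least 30 UMIs in these neurons, 0.792% had a log2 ratio of -1 or lower, and Dct, Zic1 and Loxl1 were among them. IPs and neurons descend from the APs of the same embryo, so these are not replicates of the AP values.

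In immature neurons, Dct had 8 and 4 UMIs, Zic1 had 20 and 21, Htra1 had 91 and 122 (0.33, -0.08 to 0.73) and Eya1 had 66 and 74 (0.07, -0.43 to 0.57). Loxl1 had 63 and 12 (-2.49, -3.51 to -1.58), but 28 of the 63 came from 1 WT cell, and without that cell the ratio was -1.64 (-2.72 to -0.66). Cells of the ganglionic eminence, which Emx1Cre spares, gave an interval around 0 for the 4 genes with UMIs in both embryos. Eya1 was the only 1 of them with over 30 UMIs there, with 124 UMIs in 1185 WT and 179 in 1634 cKO cells (0.12, -0.22 to 0.46). Zic1 had 10 and 8, Htra1 14 and 16, and Loxl1 12 and 14. Dct, with few UMIs, differed from these 4: it had 7 and 0 in these cells, and the upper limit of its log2 ratio was -0.94, below 0. It was thus lower in cKO here, as in APs. Over all genes with at least 30 UMIs in these cells, 0.377% had a log2 ratio of -1 or lower. The difference between APs and ganglionic eminence cells was not tested, for want of replicate embryos.

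Of the 5 genes, Zic1 had the lowest share of its UMIs in APs in both embryos, and Dct had the highest. For Zic1, 22.7% came from APs in WT and 8.46% in cKO, against 81.5% and 87.6% for Dct. Htra1, Loxl1 and Eya1 lay between, at 31.9% to 41.4% in WT and 20.6% to 30.5% in cKO. Zic1 was in 92.6% of 27 WT and 88.9% of 18 cKO pericyte-like cells, with 106 and 77 UMIs (log2 ratio 0.11, -0.33 to 0.55). It was in 60.3% of 63 WT and 58.6% of 111 cKO Cajal-Retzius-like cells, with 188 and 194 UMIs (-0.47, -0.76 to -0.17). Endothelial-like cells held 110 and 78 Zic1 UMIs (-0.34, -0.77 to 0.10). Meningeal fibroblast-like cells held 102 UMIs in 90 WT and 234 in 91 cKO cells (0.47, 0.13 to 0.82), at medians of 1807 and 2477 UMIs per cell. Over all cells the Zic1 ratio was -0.69 (-0.83 to -0.55).

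Htra1 was also an endothelial gene in these data. It had 106 UMIs in the 24 WT endothelial-like cells and 20 in the 33 of cKO (-2.25, -3.01 to -1.55), and 31 of the WT UMIs came from 1 cell, without which the ratio was -1.82 (-2.61 to -1.09). WT endothelial cells were deeper, at a median of 39431 UMIs against 22067. Meningeal fibroblasts held Htra1, Loxl1 and Eya1 in both embryos, with 15 and 23, 9 and 17, and 27 and 31 UMIs, and each interval of the ratio held 0. Dct had 1 WT and 1 cKO UMI in all Cajal-Retzius, endothelial, pericyte, meningeal, microglia and red blood cells together.

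**Figure D4:**
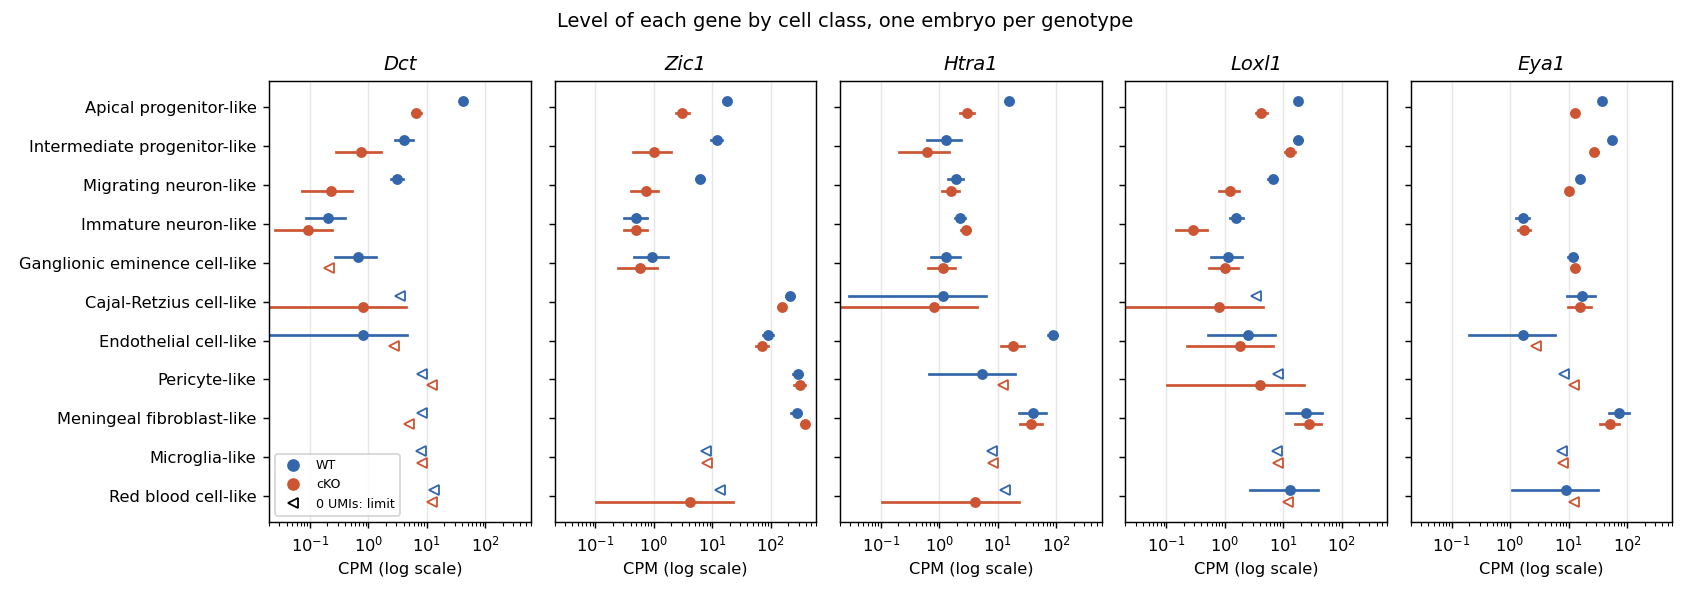
Level of each gene in CPM (log scale) in each cell class of the WT and cKO embryo, with exact Poisson 95% intervals, and open triangles at the limit that a count of 0 allows (3 UMIs per class). All 5 genes are lower in cKO APs and IPs, but Htra1 had only 10 and 5 UMIs in IPs (log2 ratio interval -2.94 to 0.64). Zic1 is highest in Cajal-Retzius, pericyte and meningeal cells of both embryos.

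Over the 28 clusters, with libraries pooled, the 5 genes had different profiles, given as Pearson correlations of log2(CPM + 1) that share the clusters' depth and library. The genes most like Dct were Bcan (0.83), Wfdc2 (0.82), Tfap2c (0.79), Gm7694 (0.79) and Hopx (0.79). Those most like Zic1 were Zic2 (0.94), Zic4 (0.93), Cthrc1 (0.90), Bmp5 (0.88) and Fam20a (0.87), and those most like Htra1 were Slc38a3 (0.88), Mfsd2a (0.85), Emp1 (0.84), Erbb2 (0.83) and Cavin3 (0.81). Loxl1 was nearest to Echdc2, Car14, Col4a5, Lpar1 and Tfap2c (0.78 to 0.79), and Eya1 to Gas2, Sertad4, Gm11335, Zfp113 and Spsb4 (0.77 to 0.85). Among the 5 themselves the highest value was 0.67, for Loxl1 and Eya1, and Dct and Zic1 were at 0.12. The pair that met most often in the same APs was thus not alike across cell classes.

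The cultured NPCs gave a measurement that the choice did not use, with 3 cultures per genotype and 16962903 to 22708400 counts each. Y-linked genes were counted in 2 WT cultures and 1 cKO culture, so sex was mixed within both groups. In bulk counts, fewer cells of a type and less RNA per cell cannot be told apart. None of the 3 genes that could be tested was called at an adjusted p under 0.05 (edgeR quasi-likelihood test, Benjamini-Hochberg over 14432 genes), while 39.5% of all genes tested were called, 19.7% higher and 19.8% lower in cKO. At an unadjusted p under 0.05, Zic1 passed alone, and its call turned with the settings given beside it.

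Zic1 had 792, 555 and 504 counts in WT and 462, 393 and 494 in cKO cultures, or 35.7, 30.9 and 22.5 CPM against 22.7, 22.9 and 23.8 CPM. The groups overlapped through the lowest WT culture, and the log2 fold change was -0.36 ± 0.14 (SE, n = 3 and 3, edgeR adjusted p = 0.0528). Without that WT culture, replicate 3, it was -0.53 (edgeR adjusted p = 0.00175), and without WT replicate 1 it was -0.21 (edgeR adjusted p = 0.190). Zic1 also passed with a replicate block (-0.34, edgeR adjusted p = 0.0270) and without the low-count filter (-0.37, edgeR adjusted p = 0.00608). Zic1 and Zic4 lie on opposite strands of chromosome 9 and 43.8% of the Zic1 span at 91358058 to 91365810 (mm10) is shared, and no source states whether counting used strand. Eya1, on chromosome 1 at 14168954 to 14310235, had 55.2, 48.8 and 44.7 CPM in WT and 57.9, 52.2 and 53.2 CPM in cKO, a log2 fold change of 0.14 ± 0.10 (SE, edgeR adjusted p = 0.298). Loxl1, on chromosome 9, was scarce, with 26, 29 and 58 counts against 34, 34 and 40, a log2 fold change of 0.05 ± 0.32 (SE, edgeR adjusted p = 0.919). For both genes the WT and cKO cultures overlapped.

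Dct had 17, 6 and 8 counts in WT and 4, 4 and 1 in cKO cultures, or 0.766, 0.334 and 0.357 CPM against 0.196, 0.233 and 0.0482 CPM. It was below the count filter and was not tested by edgeR. Its 3 WT cultures were all above its 3 cKO cultures, with a two-sided exact permutation p of 0.1, the smallest that 3 against 3 allows, and 24.7% of all genes tested were lower in cKO with no overlap. Htra1 is listed at 0 in all 6 cultures, but this is no measurement of its expression. Its span on chromosome 7 lies wholly inside a span of 2960900 bases, 130162451 to 133123350, that the table gives for Fgfr2. All 69 genes wholly inside that span are listed at 0 in all 6 cultures, Bub3 among them, a mitotic checkpoint gene of dividing cells, against 53.6% of all genes in the table.

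**Figure D5:**
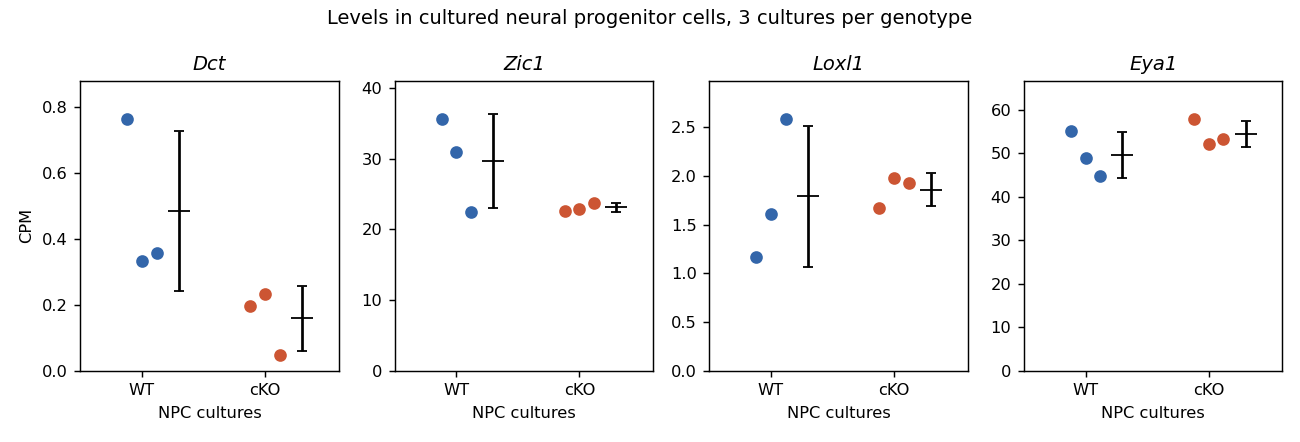
CPM in each NPC culture (points; 3 per genotype, WT left and cKO right) with the mean and SD beside them, for the 4 genes with counts, each on its own linear axis from 0. The Dct groups do not overlap, and those of Zic1, Loxl1 and Eya1 do.

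Relatives of the genes and genes of position were read in the same cultures, where 39.5% of all genes tested were called (19.7% higher and 19.8% lower), so single calls in these short lists are values and not results about the lists. Of the Zic genes beside Zic1, 2 fell (Zic2, log2 fold change -0.30, edgeR adjusted p = 0.0293, and Zic5, -0.39, edgeR adjusted p = 0.0408) and Zic4 (-0.03) did not pass. Of the 8 tested genes of the Eya and Dach network, Eya4 (0.83) and Dach2 (0.50) rose and Eya2 (-0.62) and Six3 fell, Six3 being at 5.68 to 11.2 CPM in WT and at 0 in all cKO cultures. Of 13 tested lysyl oxidase and elastic fiber genes, Fbn1 (1.45), Fbln2 (1.87) and Ltbp1 (0.62) rose, and Loxl2 (-1.07), Loxl3 (-0.65), Fbln5 (-1.90) and Mfap2 (-0.30) fell. Fbn1, fibrillin, and the fibulin Fbln2 encode matrix of microfibrils and elastic fibers, and Loxl2 and Loxl3 are crosslinking enzymes like Loxl1. Of the melanin list, Mitf and Pmel were tested and 0 were called, and of the HtrA list Htra2 and Htra3 were tested and 0 were called. Of the position lists, Wnt2b (-0.73) and Bmp4 (-0.79) fell among 3 tested hem genes, 0 of 6 dorsal pallium genes were called, and 4 of 10 septum genes fell (Zic2, Zic5, Six3 and Sp8) while Etv1 (1.03) and Etv5 (0.88) rose. Tgfa and Nrg1 rose among 3 lateral genes, and Dlx2 was among the subpallial genes that fell. The medians were -0.73 for hem, -0.15 for septum, 0.05 for dorsal, 0.41 for lateral and -0.91 for subpallial genes, beside 0.00 over all genes tested.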

How the data were processed

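The authors deposited raw gene counts of the NPC cultures (reads aligned to mm10 with HISAT2) and raw UMI counts per barcode, per the file headers from Cell Ranger 7.0.0. No source used here gives the counting program, its annotation or its strand setting. The members and all gene lists were chosen with earlier results of these data known. Culture counts were tested with edgeR 4.0.16 (TMM, default low-count filter, robust quasi-likelihood F-test, Benjamini-Hochberg over all genes tested), after a run on simulated data with known changes. UMI matrices were filtered (200 genes, 10% mitochondrial), normalised and clustered with Seurat 5.3.0 (2000 variable genes, 30 components, 20 neighbours, resolution 0.8). A cluster was named where at least 3 and at least 40% of a class's markers were raised 1.5-fold, a rule set with the data in hand. Scrublet (scanpy 1.11.5) marked 298 WT and 451 cKO doublets, which were kept in the main values. UMIs were summed per class. No test was made between embryos. Named genes were the 5 members, the neighbours in rank, the 5 genes most like each, the 10 carrier genes (at least 100 UMIs in WT APs) and the lists. Some genes of the lists are not reported here.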

Additional observations from a re-analysis of the deposited data

Results flagged for a closer look

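At full depth, Zic1 moved in opposite directions in 2 cell classes of the same embryos. It was lower in cKO APs and higher in cKO meningeal fibroblast-like cells, at a log2 ratio of 0.47 with 102 WT and 234 cKO UMIs. The difference between the classes was not tested, since each genotype is 1 embryo. The fibroblasts were shallow, at medians of 1807 and 2477 UMIs per cell, and the part of depth in this value was not tested.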

How the results depend on the processing

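The AP log2 ratios of all 5 genes stayed below -1 under the 7 alternatives, from -2.68 to -2.36 for Dct, -2.53 to -2.16 for Zic1, -2.51 to -1.97 for Htra1, -2.12 to -1.88 for Loxl1 and -1.66 to -1.50 for Eya1. The value past its counting interval was Dct at -2.36 after thinning to 5000 UMIs. Shares of positive APs moved with the depth per cell and with the cells admitted. Thinning, which both cut each cell to 5000 UMIs and left out shallower APs, gave 12.9% (WT) and 3.15% (cKO) for Dct, 6.65% and 1.49% for Zic1, 6.91% and 1.93% for Htra1, 7.42% and 2.01% for Loxl1, 12.3% and 4.82% for Eya1, and 9.85% and 1.40% for 2 or more genes. Resolution 0.4, which leaves out shallow APs, gave 23.0% (Dct), 19.6% (Zic1), 20.9% (Loxl1), 27.6% (Eya1) and 26.8% (2 or more genes) in WT, and 6.34% (Loxl1) and 14.4% (Eya1) in cKO. Without the shallow AP cluster, an alternative chosen after seeing the data, WT gave 23.8% (Dct), 19.7% (Zic1), 21.1% (Loxl1), 27.5% (Eya1) and 27.4% (2 or more genes), and cKO gave 14.3% (Eya1). All 9 sub-clusters met the 25 to 75% limit, so that setting changed nothing. Concentration was not recomputed after thinning.

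In the cultures, the number of genes called stayed within 1.5 times the main count (4108 to 6345 leaving out 1 culture, 5358 with DESeq2). Zic1 passed the threshold without the low-count filter (-0.37, edgeR adjusted p = 0.00608), and leaving out 1 culture it ran from -0.53 to -0.21. With the culture's sex as a covariate it was -0.25 (edgeR adjusted p = 0.142). The causes were not tested. Loxl1 changed sign with sex as a covariate (-0.10), and leaving out 1 culture it ran from -0.20 to 0.42. The replicate numbers do not pair the cultures (correlations 0.26, -0.05 and 0.12 of same-numbered deviations), and a replicate block gave -0.34 for Zic1 (edgeR adjusted p = 0.0270) and 6405 genes called. Depth limits Dct and Loxl1 in the cultures. The scRNA-seq intervals cover counting error only, for want of replicate embryos.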
